A study of Mus musculus with 11 samples.

Results

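The 8 genes described here are the interleukin 17 (IL-17) receptor subunits Il17ra, Il17rb, Il17rc, Il17rd and Il17re and 3 genes that act downstream of them, Traf3ip2, Nfkbiz and Zc3h12a. They were taken from the table by gene symbol, and all 8 were found among its 38406 genes. Their levels come from RNA sequencing of back skin of female C57BL/6 mice aged 8 to 10 weeks, 5 wild type and 6 Trex2 knockout (Trex2-/-, lacking an exonuclease of keratinocytes), with 1 library per biological replicate, taken here as a mouse. The shaved back of every mouse, in both groups, received 125 mg of 5% imiquimod cream daily for 4 days, and the tissue was collected 24 hours after the final dose. Imiquimod is an agonist of the receptor TLR7 that produces psoriasis-like inflammation in mouse skin. No skin without the cream was analysed here, so every comparison is between genotypes within treated skin. The wild-type libraries are numbered 2 to 6 and the knockout libraries 7 to 12.

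IL-17 cytokines are made mainly by gamma-delta T cells, T helper cells and innate lymphoid cells, and act on keratinocytes, fibroblasts and other tissue cells. IL-17A and IL-17F bind a complex of the receptor chains IL-17RA and IL-17RC, IL-17C binds IL-17RA with IL-17RE, and IL-17E (IL-25) binds IL-17RA with IL-17RB. The receptors recruit the adaptor Act1, encoded by Traf3ip2, which engages TRAF6 and leads to NF-kappaB activity and to stabilised cytokine transcripts. Nfkbiz encodes IkappaB-zeta, a nuclear partner of NF-kappaB needed for many IL-17 target genes, and Zc3h12a encodes Regnase-1, a ribonuclease that degrades inflammatory transcripts and restrains the pathway. This axis drives antimicrobial peptide and chemokine production in psoriatic epidermis.

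Il17re and Il17rc are neighbours on the plus strand of chromosome 6 (GRCm38, GENCODE M21), at 113458484 to 113470758 and 113471427 to 113483140, with 668 bases between the end of the first and the start of the second. Il17ra lies on the same strand of the same chromosome, at 120463247 to 120487559. Il17rd and Il17rb are on chromosome 14, at 27038941 to 27107286 on the plus strand and 29996135 to 30008896 on the minus strand. Traf3ip2 is on chromosome 10 at 39612934 to 39655307 (plus), Nfkbiz on chromosome 16 at 55811375 to 55838899 (minus) and Zc3h12a on chromosome 4 at 125118423 to 125127840 (minus). Exons of Il17rb overlap the opposite-strand gene Actr8, and those of Traf3ip2 overlap the antisense gene E130307A14Rik. Because the strand setting of the counting is not given in the sources used here, reads in these overlaps cannot be assigned to one gene. No annotated gene overlapped any of the other 6.

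Windows at the RefSeq starts of Il17re and Il17rc are shown because these adjacent genes had the highest fold changes of the group and varied together from mouse to mouse. Each is the 250 bases before the RefSeq transcript start, 5′ to 3′ on the plus strand, from RefSeq on GRCm38.p6, at chr6:113458521-113458770 for Il17re and chr6:113471205-113471454 for Il17rc. RefSeq and GENCODE M21 place these starts differently, so all 250 bases of the Il17re window and the last 28 of the Il17rc window lie inside the GENCODE gene spans given above. Capitals mark the longest run that the pair share in the same orientation, 10 bases long. How long a run other pairs of windows share was not computed, and a role of this run was not tested.
Il17re: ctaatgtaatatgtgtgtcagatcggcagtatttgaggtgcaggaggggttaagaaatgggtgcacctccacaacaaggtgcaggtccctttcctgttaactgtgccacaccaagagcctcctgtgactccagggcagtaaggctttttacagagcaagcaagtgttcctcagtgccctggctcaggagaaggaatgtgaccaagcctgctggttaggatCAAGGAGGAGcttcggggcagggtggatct
Il17rc: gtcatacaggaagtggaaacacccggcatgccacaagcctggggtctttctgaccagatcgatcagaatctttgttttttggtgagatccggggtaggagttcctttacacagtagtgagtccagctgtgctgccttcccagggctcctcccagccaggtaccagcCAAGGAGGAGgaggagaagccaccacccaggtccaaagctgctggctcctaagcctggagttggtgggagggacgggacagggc

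Both strands of these windows were searched for 7 motifs, and neither window held a match to any of them. They were the GC box (GGGCGG), the TATA box (TATAAA), the CCAAT box, the AP-1 site (TGANTCA), a C/EBP site (TTGCNCAA), a grainyhead site (AACNGGTT) and the kappaB site by its 10-base consensus. Among 32851 windows of the same length before RefSeq transcript starts, 32.7% held a GC box, 12.4% a TATA box, 33.8% a CCAAT box, 7.25% the kappaB site, 6.75% the AP-1 site, 2.61% the C/EBP site and 1.79% the grainyhead site. Windows for Il17rb, Il17rd and Zc3h12a were searched too, and that of Zc3h12a is shown for having the most matches, 5 GC boxes (capitals, GGGCGG or its reverse complement), at chr4:125127882-125128131 on the minus strand.
Zc3h12a: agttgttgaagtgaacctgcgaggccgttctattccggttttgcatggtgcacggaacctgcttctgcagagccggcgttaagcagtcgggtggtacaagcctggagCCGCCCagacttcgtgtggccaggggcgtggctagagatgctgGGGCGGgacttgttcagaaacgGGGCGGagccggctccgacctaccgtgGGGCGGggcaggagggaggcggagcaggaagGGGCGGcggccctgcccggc

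In level per length of merged exon, Il17rc was the most abundant of the 8 and Il17rb the least. Normalized counts (reads divided by the size factor of the library) were divided by the merged exon length of each gene in kilobases (kb) to compare genes. That length joins all GENCODE M21 exons of a gene and is not the length of 1 transcript. The annotation used for counting is not known either, so levels compared between genes are approximate. Il17rc had 115 ± 38.5 normalized counts per kb across the 5 wild-type mice and 222 ± 87.0 across the 6 knockouts (mean ± SD). Zc3h12a had 86.2 ± 19.4 and 107 ± 16.2 in wild type and knockout, Nfkbiz 99.5 ± 24.8 and 87.3 ± 30.5, and Il17ra, the chain shared by the IL-17 receptors, 67.7 ± 12.7 and 50.3 ± 17.9. Traf3ip2 had 30.9 ± 3.71 and 36.0 ± 4.47 per kb. Il17re had 8.34 ± 3.05 and 17.1 ± 5.63, Il17rd 1.85 ± 0.97 and 2.12 ± 0.934, and Il17rb 0.365 ± 0.422 and 0.556 ± 0.438.

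That order was firm across libraries at its lower end and not at its upper end. Nfkbiz exceeded Il17ra, Traf3ip2 exceeded Il17re and Il17re exceeded Il17rd in 11 of 11 libraries, and Il17rd exceeded Il17rb in 10. Zc3h12a exceeded Nfkbiz in 7 of 11, so their levels did not separate. Il17rc exceeded Zc3h12a in all 6 knockout but in 3 of 5 wild-type libraries. Il17ra exceeded Traf3ip2 in all 5 wild-type but in 4 of 6 knockout libraries.

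**Figure D1:**
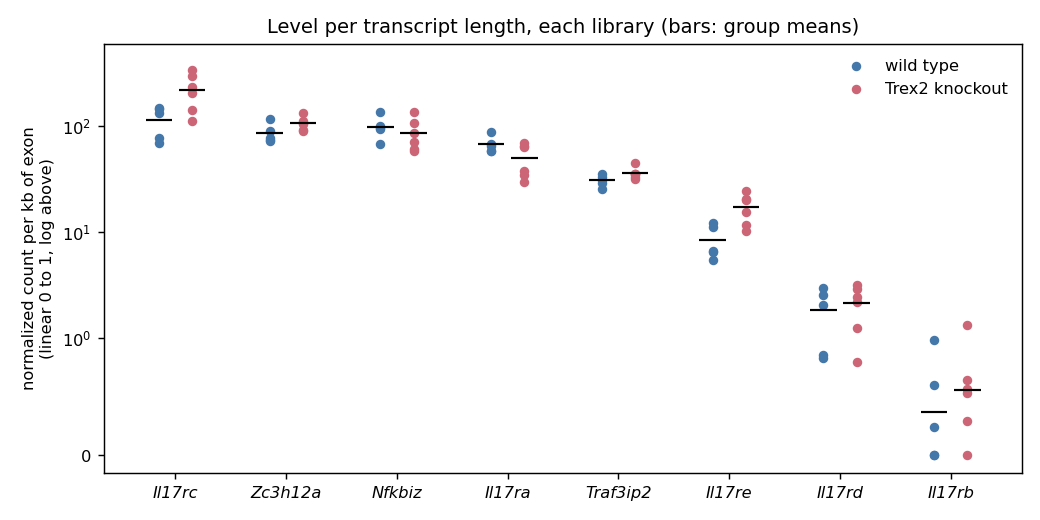
Normalized count per kb of merged exon (y axis, linear from 0 to 1 and logarithmic above) for the 8 genes in order of mean level, with 1 point per library, wild type in blue, Trex2 knockout in red, and bars at group means. Il17rc reached 339.7 per kb in knockout, while Il17rb did not exceed 1.31 in any library.

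None of the 7 tested genes passed an adjusted p of 0.05 between the genotypes in limma, the main test, or in edgeR; DESeq2 called 2, Il17rc and Il17re. None of the 7 separated the groups without overlap. Il17rb was below the mean of 10 normalized counts required for testing. limma on log2(normalized count + 1) called 2 of 13215 genes (0.0151%) in all, of which 1 was Trex2 itself, and edgeR called 4 (0.0303%), none of them among the 7. DESeq2 called 576 of 12446 genes (4.63%), with 2.35% called higher in knockout. Groups without overlap were found for 2.32% of tested genes (1.02% with knockout above, 1.29% below). Of the 7 genes 5 had a positive log2 fold change (knockout relative to wild type), with a median of 0.22, against 51% of all tested genes and a median of 0.01. An unadjusted p under 0.05 was found for 2 of the 7, Il17re and Il17rc, both higher in knockout, where 24.4% of all tested genes had such a p, 12.9% higher and 11.5% lower. The limma and edgeR adjusted p of each gene below is Benjamini-Hochberg over all 13215 genes. That of DESeq2 is over the 12446 genes for which it gave one.

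Il17rc, the chain that pairs with IL-17RA for IL-17A and IL-17F, averaged 1.93 times as high in knockout as in wild-type skin. Its normalized counts were 397, 185, 391, 208 and 355 in wild-type replicates 2, 3, 4, 5 and 6. In knockout replicates 7 to 12 they were 623, 385, 907, 551, 302 and 794. Knockout replicates 7, 9, 10 and 12 lay above every wild-type library, whereas 8 and 11 fell within the wild-type range. Its log2 fold change by limma was 0.92 ± 0.29 (SE; adjusted p = 0.115). DESeq2 on the recovered reads called it higher (log2 fold change 0.93, adjusted p = 0.0445), where 4.63% of genes were called by that tool and 2.35% called higher, and edgeR did not (0.93, adjusted p = 0.13). Over 22 alternative settings (limma, edgeR or DESeq2) its log2 fold change was 0.61 to 1.09. Its adjusted p was 0.0445 to 0.892, the highest in limma with log10 depth as a covariate.

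Il17re, the chain for the epithelial cytokine IL-17C, averaged 2.05 times as high in knockout. It had 70.8, 31.6, 65.6, 39.0 and 37.7 normalized counts in wild-type replicates 2 to 6. The knockout replicates 7 to 12 had 118, 59.6, 121, 90.3, 68.1 and 144. As for Il17rc, replicates 7, 9, 10 and 12 stood above every wild-type library, and replicates 8 and 11 fell within the wild-type range. Its log2 fold change by limma was 1.02 ± 0.27 (SE; adjusted p = 0.108). DESeq2 called it higher (0.99, adjusted p = 0.0329) and edgeR did not (0.99, adjusted p = 0.13). Without wild-type replicate 4 limma called it too (1.14, adjusted p = 0.0431), where 5.6% of all genes were called and 3.5% called higher. Over 22 alternative settings (limma, edgeR or DESeq2) its log2 fold change was 0.79 to 1.17. Its adjusted p was 0.0329 to 0.892, the highest in limma with log10 depth as a covariate.

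Markers of several cell types moved with Il17rc and Il17re, keratinocytes among them. All 10 fixed markers (Krt5, Krt14, Krt15, Trp63, Col17a1, Krt1, Krt10, Lor, Ivl and Flg) were detected and had positive log2 fold changes, and none was at 0. None of the 10 passed in limma, where 6 had an unadjusted p under 0.05, all higher, against 12.9% of all tested genes. DESeq2 called 3 higher, where 2.35% of all genes were called higher. Without wild-type replicate 4 limma called 5 higher, Trp63, Col17a1, Krt1, Lor and Ivl, where 3.5% of all genes were called higher. Summed per library the 10 markers gave 35944 to 98964 normalized counts among wild-type mice and 58714 to 199733 among knockouts. Knockout replicates 9, 12 and 7 had the largest sums, in the same order as for Il17rc. Per 1000 summed keratinocyte counts, a ratio computed after the values were seen, Il17rc ranged from 3.95 to 8.28 (wild type) and from 4.35 to 6.55 (knockout), and Il17re averaged 0.827 ± 0.17 and 0.932 ± 0.179 (SD). The groups overlapped on that scale for both genes, as they did before the division. Il17ra on that scale averaged 11.5 ± 5.66 (wild type) and 5.12 ± 3.5 (knockout, both SD). Krt14 and Krt5 made up most of the keratinocyte sums. As a description over 11 libraries after subtraction of genotype means, Il17rc had r = 0.78 with the keratinocyte markers, 0.71 with hair follicle, −0.89 with endothelium and −0.71 with neutrophil markers. For Il17re these values were 0.74, 0.74, −0.76 and −0.80. Endothelial sums spanned 2230 to 3563 (wild type) against 1430 to 3340 (knockout), and neutrophil sums 12757 to 33858 against 3204 to 23875. The part of these cell types in the differences was not tested. In bulk skin, fewer cells of a type and less RNA per cell cannot be told apart.

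**Figure D2:**
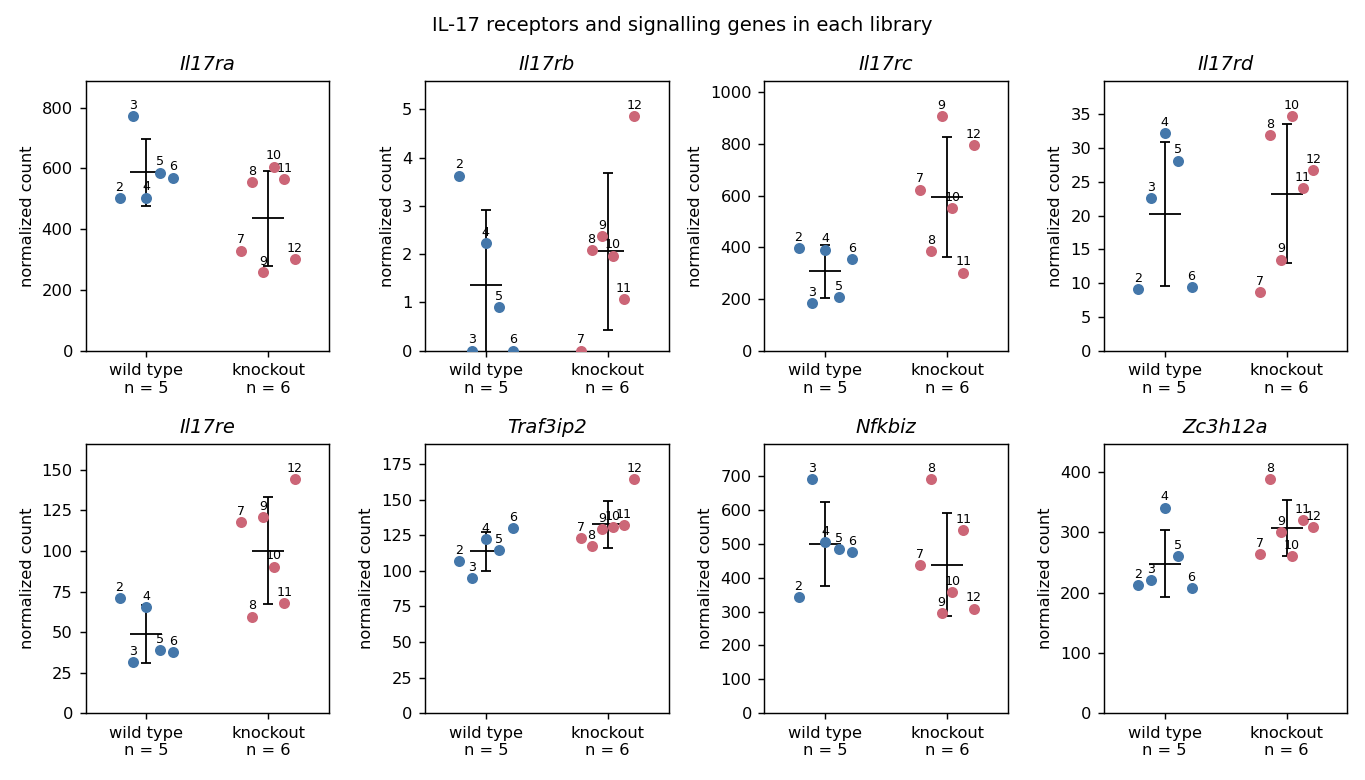
Normalized counts (y axis, from 0, scaled for each gene) of the 8 genes in each library, with wild type in blue and Trex2 knockout in red; numbers are replicate numbers, and bars and whiskers are the mean and SD. Knockout replicates 7, 9 and 12 are high for Il17rc and Il17re and low for Il17ra.

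Il17ra, the common subunit, leaned the other way. Wild-type replicates 2 to 6 had 501, 772, 504, 586 and 570 normalized counts. Knockout replicates 7 to 12 had 330, 554, 259, 606, 564 and 300.2. Replicates 7, 9 and 12 lay below every wild-type library, and 8, 10 and 11 were in the wild-type range. Its log2 fold change by limma was −0.49 ± 0.23 (SE; adjusted p = 0.208). Leaving out knockout replicates 9 and 12 gave −0.21 (limma adjusted p = 0.634), and the values of Il17rc and Il17re were then 0.61 (adjusted p = 0.389) and 0.79 (adjusted p = 0.359). These libraries had the lowest Il17ra and the highest Il17rc and Il17re values, so leaving them out had to shrink these differences. Over 22 alternative settings (limma, edgeR or DESeq2) the adjusted p of Il17ra was 0.147 to 0.892, the highest in limma with log10 depth as a covariate. Il17ra moved with the same markers in the opposite sense, with r = 0.87 for endothelium, 0.80 for neutrophils, 0.71 for monocytes and macrophages and −0.70 for keratinocytes, as a description over 11 libraries. All 8 neutrophil markers had negative log2 fold changes, with a median of −1.24, and 6 of 7 endothelial markers did, with a median of −0.29. The part of these cell types in the level of Il17ra was not tested.

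The balance of the chains differed widely between libraries. The ratio of Il17rc to Il17ra per length, in which the size factor of the library cancels, was 0.778 to 2.57 in wild type with a median of 2.02. In knockout replicates 7, 9 and 12 it was 6.13, 11.4 and 8.58, and in replicates 8, 10 and 11 it was 2.25, 2.95 and 1.74. Only the first 3 of these and replicate 10 stood above the wild-type range. The ratio of Il17re to Il17rc was steadier, at 0.0738 ± 0.0147 (wild type) and 0.0795 ± 0.0145 (knockout, both mean ± SD). These ratios were chosen after the values were seen and were not tested.

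Il17rb and Il17rd, the remaining receptor chains, were low. Il17rb had 5 reads in all wild-type and 27 in all knockout libraries, 14 of them in replicate 12, and it had none in 3 libraries. Its ratio of read rates (knockout over wild type) was 1.74 (exact 95% interval 0.662 to 5.8, for counting error alone), so a difference was not detectable at this depth. The overlapping gene Actr8 had 104 to 137 normalized counts. Il17rd, also known as SEF, an inhibitor of FGF signalling that also binds IL-17 receptor chains, had 9.07, 22.6, 32.2, 28.1 and 9.41 normalized counts in wild-type replicates 2 to 6. It had 8.68, 31.9, 13.5, 34.7, 24.1 and 26.7 in knockout replicates 7 to 12. The groups spanned nearly the same range, and its log2 fold change by limma was 0.22 ± 0.42 (SE; adjusted p = 0.763). It rested on 76 reads in wild type and 278 in knockout, and the sign changed without wild-type replicate 2 (−0.0026) or with depth as a covariate (−0.38).

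Traf3ip2, the Act1 adaptor, varied least from mouse to mouse. Its coefficient of variation was 12% in wild type and 12.4% in knockout, against 18.8% to 116% in wild type for the other 7 genes. It had 107, 94.8, 122, 114 and 130.2 normalized counts in wild type and 123, 117, 129, 131, 132 and 165 in knockout replicates 7 to 12. Replicate 12 stood apart above the rest, and the groups overlapped. Its log2 fold change by limma was 0.22 ± 0.13 (SE; adjusted p = 0.311), and 0.03 with depth as a covariate.

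Nfkbiz had 343, 690.4, 505, 484 and 474 normalized counts in wild-type replicates 2 to 6 and 437, 689, 296, 357, 541 and 309 in knockout replicates 7 to 12. Its highest value in each group was nearly the same, and replicates 9 and 12 were lowest. Its log2 fold change by limma was −0.22 ± 0.23 (SE; adjusted p = 0.564). Without replicates 9 and 12 it was 0.01, and with depth as a covariate 0.04. Zc3h12a, which encodes the ribonuclease Regnase-1, had 212, 221, 341, 261 and 207 normalized counts in wild type and 264, 389, 300.1, 261, 321 and 309 in knockout replicates 7 to 12. Wild-type replicates 2, 3 and 6 were below every knockout library. Wild-type replicate 5 (260.5) was level with knockout replicate 10 (260.7), a gap of less than 1 read, and wild-type replicate 4 was within the knockout range. Its log2 fold change by limma was 0.32 ± 0.15 (SE; adjusted p = 0.22), and 0.18 with depth as a covariate.

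**Figure D3:**
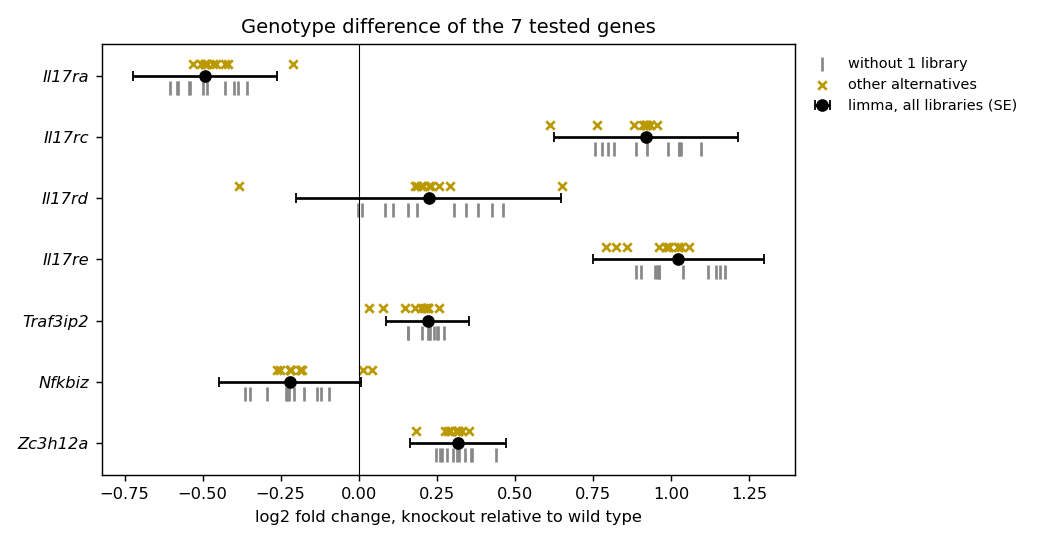
Log2 fold change (x axis, knockout relative to wild type) of the 7 tested genes, with the limma estimate and its SE in black, estimates without 1 library as grey ticks and other settings as yellow crosses. Il17rc and Il17re stayed above 0 and Il17ra below 0 in all of them, while Il17rd and Nfkbiz crossed 0.

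Across mice, 4 of the 7 genes, Il17rc, Il17re, Il17ra and Nfkbiz, varied together or inversely within each genotype. Correlations were computed on log2(normalized count + 1) after the mean of each genotype was subtracted, over 11 libraries and 21 pairs, with exact permutation p-values from all 86400 reorderings within genotype. Il17rc and Il17re varied together (Pearson r = 0.86, exact permutation p = 0.00374, adjusted p = 0.0246; Spearman rho = 0.891, p = 0.00215, adjusted p = 0.0226). Il17rc and Il17ra varied inversely (r = −0.82, exact permutation p = 0.00211, adjusted p = 0.0246; rho = −0.891, p = 0.00215, adjusted p = 0.0226). Without the 2 libraries farthest from the median of the first gene, r was 0.82 for the first pair and −0.91 for the second (gene Il17ra taken first). The inverse relation of Il17rc and Il17ra was −0.87 within wild type and −0.85 within knockout.

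Nfkbiz was inverse to Il17rc and to Il17re as well. For Il17rc r was −0.81 (exact permutation p = 0.00509, adjusted p = 0.0246) and rho −0.818 (p = 0.0088, adjusted p = 0.0603). For Il17re r was −0.81 (exact permutation p = 0.00407, adjusted p = 0.0246) and rho −0.782 (p = 0.0144, adjusted p = 0.0603). Il17ra and Il17re gave r = −0.80 (exact permutation p = 0.00586, adjusted p = 0.0246) and rho = −0.782 (p = 0.0144, adjusted p = 0.0603). In these 3 pairs the Pearson value passed the adjustment and the rank value did not, and without the 2 farthest libraries r was −0.75, −0.71 and −0.92. None of the other 16 pairs passed with either measure, the largest being Il17ra with Nfkbiz (r = 0.69, exact permutation p = 0.0463, adjusted p = 0.153; rho = 0.636, p = 0.0634, adjusted p = 0.222). The libraries differ in their summed cell type markers and in depth, and the part of these in the correlations was not tested.

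**Figure D4:**
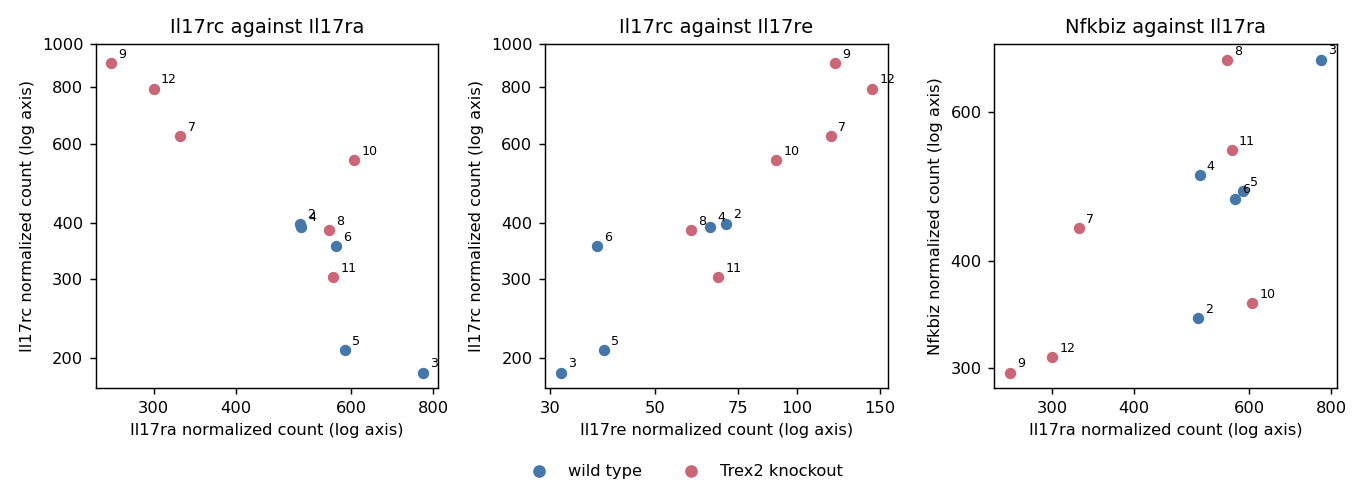
Normalized counts of Il17rc against Il17ra, Il17rc against Il17re and Nfkbiz against Il17ra (logarithmic axes), 1 point per library with its replicate number, wild type in blue and Trex2 knockout in red. Il17rc is lower where Il17ra is higher and higher where Il17re is higher in both genotypes, and knockout replicates 9, 12 and 7 form the high Il17rc end.

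The genes most like each of these were sought among named genes with a mean of at least 50 normalized counts, by the same correlation over 11 libraries and as a description only. For Il17rc they were Capns2 (r = 0.97), a calpain small subunit, and Pinlyp (0.97). Serinc2 and Cdv3 (both 0.97) were nearest to Il17re. For Il17ra they were Emilin2 (0.96), an extracellular matrix glycoprotein, and Zyx (0.96), which encodes the focal adhesion protein zyxin. Nfkbiz was most like Ncf1 (0.95), a subunit of the phagocyte NADPH oxidase, and Prcp (0.94). Il17rd was most like Mr1 (0.94) and Apcdd1 (0.93), an inhibitor of Wnt signalling. Bcl2l13 (0.93) and G2e3 (0.91) came first for Traf3ip2, and Susd1 and Gdap2 (both 0.89) for Zc3h12a.

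Transcripts of the ligands were close to or below the limit of detection in this skin. Of the 6 IL-17 family cytokines none reached the mean required for testing. Il17a had 4 reads over all 11 libraries, 2 in each genotype, and was at 0 in 9 libraries. Il17f had 3 reads, all in knockout, and Il17c, the ligand of the receptor with IL-17RE, had 6, all in knockout. No read of Il25, the ligand of the receptor with IL-17RB, was found. A count of 0 allows up to 3 reads, which correspond to 1.04 to 13.5 normalized counts depending on the library. Il17d, with 3.14 to 12.7 normalized counts, and Il17b were the most abundant ligands. Because knockout libraries were deeper, a read found only there does not show a difference.

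No gene of the pathway lists below passed in limma or in edgeR. Of 12 inducers of IL-17 and their receptors 6 were tested, 1 positive and 5 negative with a median log2 fold change of −0.38. An unadjusted p under 0.05 was found for 1, lower, against 11.5% of all tested genes. Tgfb1, one of the cytokines that direct T helper 17 cells, averaged 1079 ± 138 normalized counts in the 5 wild-type mice and 819 ± 196 in the 6 knockouts (mean ± SD), with a log2 fold change of −0.43 (limma SE 0.17, adjusted p = 0.165). Il1b stood at −0.47 (SE 0.33), its receptor Il1r1 at −0.34 (SE 0.31) and Il6 at −0.56 (SE 0.67). Il23a, a subunit of IL-23, spanned 0.908 to 23.5 normalized counts among wild-type and 3.18 to 12.1 among knockout mice. Leaving out knockout replicates 9 and 12 moved the median of the list to 0.0009, and it was −0.12 without replicate 9 alone and −0.20 without replicate 12 alone. Of 11 markers of T cells able to make IL-17, 10 were in the table and 3 were tested, Maf, Il7r and Sox13, all with negative values. Their sums, 1008 to 1915 among wild-type and 875 to 1600 among knockout mice, consisted mostly of Maf, which other cells express too. The T cell receptor components, chosen after their values were seen, were below the level for testing and, except for Trac, averaged lower in knockout. Averages in wild type against knockout were 6.25 against 1.67 normalized counts for Cd3d, 7.12 against 3.09 for Cd3g and 7.11 against 3.12 for Cd3e. Trac went the other way, at 2.75 against 3.29. The remaining untested markers averaged lower in knockout, Cd163l1 at 8.46 against 5.25, Blk at 3.47 against 2.00 and Ccr6 at 0.68 against 0.34. They rested on 72, 33 and 5 reads in all. In limma with no filter on level, 9 of the 10 markers had a negative log2 fold change and 1 a positive one, and 0 passed an adjusted p of 0.05. The knockout values of Cd3d were all below the wild-type values, on 40 reads in all. Such a separation was seen for 1.29% of tested genes, a share that does not cover genes below the level for testing, such as Cd3d. The part of T cell content was not tested.

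The proximal signalling genes showed no common direction. Of 26 members all were tested, 15 positive and 11 negative, with a median of 0.03. The unadjusted p was under 0.05 for 5 higher and 2 lower, against 12.9% higher and 11.5% lower of all tested genes. Traf6, the ubiquitin ligase that Act1 recruits, averaged 174 ± 56.6 normalized counts in the 5 wild-type mice and 305 ± 140 in the 6 knockouts (mean ± SD), with a log2 fold change of 0.75 (limma SE 0.28, adjusted p = 0.139). Its highest value, 560 in knockout replicate 12, was in the library that was also highest for Il17re and Traf3ip2. Map3k7, the kinase TAK1, stood at 0.39 (SE 0.15) and its binding partner Tab3 at 0.66 (SE 0.25). Tnip1, which restrains NF-kappaB with A20, stood at −0.58 (SE 0.21).

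Of the 10 NF-kappaB subunits and IkappaB proteins 8 were negative, with a median of −0.26 and an unadjusted p under 0.05 for 4, all lower. At that threshold 11.5% of all tested genes were lower. Nfkbid, which encodes another nuclear IkappaB protein, averaged 290 ± 101 normalized counts in the 5 wild-type mice and 153 ± 90.9 in the 6 knockouts (mean ± SD), with a log2 fold change of −1.06 (limma SE 0.37, adjusted p = 0.127). Nfkbia, the classical inhibitor IkappaB-alpha, stood at −0.55 (SE 0.22) and Relb at −0.45 (SE 0.20). Bcl3, the third nuclear member beside Nfkbiz and Nfkbid, stood at −0.23 (SE 0.10), and each of the 6 knockout values was lower than the lowest wild-type value, a separation seen for 1.29% of tested genes. Bcl3 was the 1 gene of 78 tested in the pathway lists whose groups did not overlap. Leaving out knockout replicates 9 and 12, the list had 5 positive and 5 negative members and a median of −0.08, and without replicate 9 alone the median was −0.17.

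The relatives and partners of Zc3h12a in control of messenger RNA decay and stability were split, with 6 of 12 tested members positive and 6 negative. Their median was −0.02, and 1 had an unadjusted p under 0.05 in each direction, against 12.9% higher and 11.5% lower of all tested genes. The median changed sign between settings, from −0.14 without wild-type replicate 2 to 0.11 without knockout replicates 9 and 12. Upf1, the helicase that Regnase-1 uses, stood at 0.33 (SE 0.13) and N4bp1, a related ribonuclease, at −0.41 (SE 0.18). Arid5a, which protects transcripts from Regnase-1, stood at −0.28 (SE 0.17) and Srsf1 at 0.25 (SE 0.15). The limma adjusted p of these 4 was 0.151 to 0.31.

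Among 27 IL-17 target genes of epithelia 24 were tested, 18 negative and 6 positive, with a median of −0.33. The unadjusted p was under 0.05 for 3 higher and 7 lower, against 12.9% higher and 11.5% lower of all tested genes. Saa3, an acute-phase protein, averaged 46091 ± 12951 normalized counts in the 5 wild-type mice and 19491 ± 9132 in the 6 knockouts (mean ± SD), with a log2 fold change of −1.33 (limma SE 0.35, adjusted p = 0.108). Cxcl5, a neutrophil attractant, stood at −1.34 (SE 0.39), S100a8, a calprotectin subunit, at −1.12 (SE 0.34) and Mmp3, the metalloproteinase stromelysin, at −0.85 (SE 0.27). DESeq2 called 4 of the list lower, Saa3, Cxcl5, S100a8 and Lcn2, where 2.28% of all genes were called lower. Without wild-type replicate 4 limma called these 4 and Mmp3 lower, where 2.1% of all genes were called lower, and Il1f6, the older name of Il36a, higher (log2 fold change 2.34, adjusted p = 0.0379). The median was −0.21 with replicates 9 and 12 left out, −0.58 without knockout replicate 7, −0.50 with reads thinned to the shallowest library and −0.17 with depth as a covariate. Neutrophils also express several of these genes, S100a8 and Lcn2 among them. All 8 neutrophil markers were negative, none was at 0, and their sums were 12757 to 33858 for wild-type and 3204 to 23875 for knockout mice. The part of neutrophil content in these values was not tested.

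**Figure D5:**
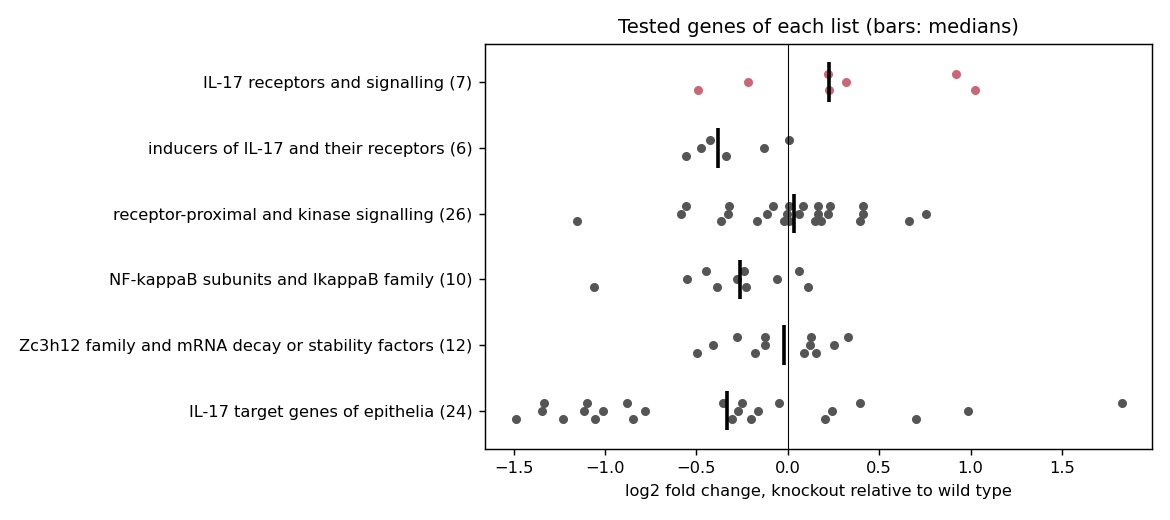
Log2 fold change (x axis, knockout relative to wild type) of each tested gene of the IL-17 receptor and signalling group (red) and of 5 lists of pathway genes (grey), with the number tested in parentheses and bars at medians. Il17re and Il17rc stand at the right end of their group, while most target genes lie left of 0.

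Depth and libraries bear on all of these values. The libraries held 1208896 to 15557862 counted reads and were deeper in knockout (exact permutation test on 462 splits, two-sided, p = 0.026). Trex2 itself, at 1125 or more normalized counts in each wild-type library and at most 3.47 in each knockout library, matched the labels. Every matched marker of keratinocytes, fibroblasts, endothelium, macrophages, muscle and adipocytes had reads. Knockout replicates 9 and 12 stood apart from the other knockout libraries with the highest keratinocyte sums and the lowest neutrophil sums. The labels name the mice of a group as biological replicates and give no batch, litter or sequencing date.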

How the data were processed

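Pulverized skin of 11 mice gave RNA from which mRNA libraries were made, per the labels' protocols. The authors deposited a normalized signal (reads over the size factor of the library) for 38406 symbols. TopHat2 2.0.8, featureCounts 1.4.6, DESeq2 1.8.1 and GRCm38 are named in the submitters' processing notes. The sources used here do not give the annotation version or strand setting. Dividing by the value of 1 read gave whole reads for 100% of values (tolerance 0.01). All 25 pairs of libraries within a genotype differed by more than sampling noise.

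The main test was limma 3.58.1 (R 4.3.3; moderated variances, trend) on log2(value + 1) of the 13215 genes with a mean of at least 10, Benjamini-Hochberg adjusted, threshold 0.05. This scale understates changes of low genes. edgeR 4.0.16 and DESeq2 1.42.0 on recovered reads, other pseudocounts, filters and scalings, a depth covariate, thinned reads and left-out libraries were alternatives. In simulated counts for 13215 genes 61% of log2 changes of 1 and 96% of changes of 2 were recovered, and 6 unchanged genes were called. Each gene was drawn independently, without the variation that genes share in these libraries, so these shares need not hold for the real data.

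Named genes were the 8, the 4 of smallest p in each pathway list (limma called none) and the 2 most alike per gene. Lcn2, Il1f6, Il23a, the T cell genes and the ligands were added after their values were seen. Members and lists were chosen with earlier results of these data known. Among 164 list symbols, 1 had no match and 3 matched by an earlier symbol.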

Additional observations from a re-analysis of the deposited data

Results flagged for a closer look

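Traf3ip2 had 165 normalized counts in knockout replicate 12, against 132 in the next highest knockout library, and this gap was 0.69 of the range of the group. It was the only library so far from the rest among 16 sets of values, 8 genes in 2 genotypes; chance marks about 1 in 20 such sets. Replicate 12 was the deepest library, at 15557862 counted reads. Without it the log2 fold change of Traf3ip2 was 0.16 (limma adjusted p = 0.563).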

How the results depend on the processing

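The 7 tested genes were refitted under 22 settings each, 21 for Il17rd. The log2 fold changes of Il17ra (−0.60 to −0.21), Il17rc (0.61 to 1.09), Il17re (0.79 to 1.17), Traf3ip2 (0.03 to 0.27) and Zc3h12a (0.18 to 0.44) kept their sign in all of them. Il17rd turned to −0.38 and Nfkbiz to 0.042 with log10 depth as a covariate, Nfkbiz to 0.012 without knockout replicates 9 and 12, and Il17rd to −0.0026 without wild-type replicate 2; the cause was not tested. DESeq2 on recovered reads called 576 genes where limma called 2 and edgeR 4, and 2 of the 8 genes described, Il17rc (0.93) and Il17re (0.99); the cause was not tested. Over fits that each left out 1 library, 2 to 740 genes were called, the latter without wild-type replicate 4, and 0 to 1 of the 8 genes, namely Il17re (0.89 to 1.17, adjusted p 0.0431 to 0.233). In those fits Il17rd ranged from −0.0026 to 0.46. TMM and upper-quartile scaling gave all genes a median of 0.04 and −0.03. Depth limits Il17rb and the ligands, with 0 to 14 reads per library for Il17rb. No paired analysis was possible because the groups share no replicate numbers.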
